A study of Mus musculus with 9 samples.

Results

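The genes described here encode proteins of the fibrous sheath and the outer dense fibres, the accessory structures that surround the axoneme of the sperm tail. They are 9 of the 23074 genes in the count table and were chosen by name: Akap3, Akap4, Fscb, Ropn1 and Cabyr for the fibrous sheath, and Odf1, Odf2, Odf3 and Odf4 for the outer dense fibres. RNA-seq was performed on decapsulated testes of 5 wild type and 4 Rfx2-/- mice, 1 library per mouse, at postnatal days 29 to 30 (P30). All mice were on a mixed background of C57BL/6, 129/Sv and FVB/N. RFX2 is a transcription factor of spermatocytes and round spermatids, and the Rfx2-/- allele lacks in every cell an exon that encodes much of its DNA binding domain.

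The outer dense fibres run along the axonemal doublets through the midpiece and principal piece and stiffen the tail. The fibrous sheath encloses them in the principal piece. It is built largely from AKAP4 and AKAP3, A-kinase anchoring proteins that hold protein kinase A and glycolytic enzymes beside the axoneme. Most of these genes are transcribed in spermatids, and their proteins are assembled into the tail as it elongates. RFX factors bind the X-box, an inverted repeat, and CREM, another transcription factor of spermatids, binds cAMP response elements (CRE).

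Promoter windows from RefSeq (GRCm38.p6), which reach from 250 bases before to 50 bases after a transcription start, were found for 7 of the 9 genes, in 11 windows. Odf1 and Cabyr had no window, so their promoters were not searched. The CRE-like word TGATGTCA, searched for on both strands after the sequences had been read, occurs in 3 of the 7 genes. These are both major anchoring proteins and Fscb, and the word begins 35, 22 and 51 bases before the start of Akap4, Akap3 and Fscb. A second copy overlaps the start of Akap3. The word is present in 3.62% of all 32851 windows, which is a share of windows and not of genes. Because the word was chosen from these sequences, the counts carry no test. It also occurs in a window of Odf3l1 and of Akap6, which are described below and are not among the 9 genes. The stretches before the start of Akap4, Akap3 and Fscb are given 5′ to 3′ on the gene's strand, with the word in capitals.
Akap4, chrX:7067435-7067514, plus strand: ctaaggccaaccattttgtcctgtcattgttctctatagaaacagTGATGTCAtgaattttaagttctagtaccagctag
Akap3, chr6:126853018-126853097, plus strand: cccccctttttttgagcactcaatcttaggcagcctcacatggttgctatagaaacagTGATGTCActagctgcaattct
Fscb, chr12:64474899-64474978, minus strand: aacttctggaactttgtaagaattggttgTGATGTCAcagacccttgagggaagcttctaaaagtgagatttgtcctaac

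The X-box was searched on both strands as the inverted repeat GTNNCCNNGGNNAC, which 1.88% of windows hold, and as the shorter word GTTGCC, which 12.5% hold. No window of these 7 genes contains the inverted repeat. The shorter word occurs in 1 of them, Odf3. Odf3b, a relative of Odf3 that is not among the 9 genes, has the inverted repeat 47 bases before its start. These stretches are shown to set the relatives side by side, and the letters were not tested against the calls given below. Odf3l1, a relative called lower, has GTTGCC as Odf3 does and no inverted repeat, and Ccdc42 and Prkar2a, also called lower, have neither. No window is given here for Aldoart1 and Rhpn1, which were called lower as well. Capitals mark GTTGCC in Odf3 and the inverted repeat in Odf3b. The Odf3 stretch lies within an annotated exon in GENCODE M21, since the RefSeq start used for its window is downstream of the start in that annotation.
Odf3, chr7:140847842-140847871, plus strand: ttttagggaGTTGCCtggcacagacaccag
Odf3b, chr15:89379275-89379334, minus strand: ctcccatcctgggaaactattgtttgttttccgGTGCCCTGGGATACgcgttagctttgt
The CRE core TGACG, present in 20.8% of windows, occurs in Odf2 alone among the 7 genes with a window. A match of letters is a description of the sequence and not a site of binding.

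The depth was 28800855 counts for Rfx2-/- replicate 1 and between 13574764 and 15193330 for the other 8 libraries. All 9 genes were among the 15613 tested. Rfx2 itself fell from 549 ± 54 CPM (SD, n = 5) to 146 CPM (n = 4), a log2 change of -1.91 (edgeR quasi-likelihood test, adjusted p = 0.000781), and no mutant library overlapped the wild type range. Levels are given in CPM, the read count of a gene relative to the TMM-scaled depth of its library. There were 2 libraries that stood apart from others of their genotype. Wild type replicate 3 had the lowest elongating spermatid markers of the wild type libraries, with a median log2 deviation of -0.74 from the wild type mean, against -0.06 to 0.37 in the other 4. Rfx2-/- replicate 2 deviated from the other mutants by gene length, with a median of 0.61 where exons summed to less than 2 kb and of -0.93 where they exceeded 8 kb. It also stood apart in germ cell markers, with a median deviation from the wild type mean of 1.4 for meiotic prophase markers, against 0.14 to 0.46 in the other mutants, and of -0.09 for elongating spermatid markers, against -1.26 to -0.87. Values without these libraries are given beside the results that they change most.

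In wild type testis all 9 mRNAs were abundant, and their levels per kilobase of exon spanned a range from 83.9 to 864.7 CPM per kb. Odf2, a coiled-coil protein of the fibres that also has a centrosomal form, was highest, at 864.7 ± 129.8 (SD, n = 5). Odf1, the small heat shock related protein of the fibres, had 743 ± 169 CPM per kb. Akap4, the main structural protein of the sheath, followed at 541 ± 105. The ranges of ± 1 SD of neighbours in this order overlapped. Akap3 had 326 ± 67 CPM per kb and Ropn1, which encodes ropporin, a protein that binds AKAP3, had 279 ± 66, and these ranges also overlapped. Overlap of ranges does not compare 2 genes within a library, and the order was not tested. The log2 ratio of Ropn1 to Akap3 counts varied little in wild type, at -1.92 ± 0.09 (SD, n = 5). Odf4 stood apart at 187.5 ± 13.6 CPM per kb by this length. Per kb of the longest transcript Odf4 had 195.7 and Cabyr 161.4, closer to each other, so the gap to Cabyr depends on the length used. Cabyr, a calcium-binding protein of the sheath, had 137 ± 24, Odf3, a protein of the shippo repeat family, 103 ± 17, and Fscb, which binds CABYR, 83.9 ± 17.2. Odf3 overlapped with each of its neighbours.

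The comparison of genotypes asked which of these transcripts depend on RFX2. None of the 9 genes was called lower or higher, where a call required an adjusted p of 0.01 or less and a change over 2-fold. Among all genes tested 3.68% were called lower and 0.826% higher. Without the fold limit and at an adjusted p of 0.05, 2 of 9 were lower, Akap4 and Odf1, against 7.31% of all genes, and 0 of 9 were higher, against 3.48%. At an unadjusted p under 0.05 these were 4 of 9, with Odf2 and Fscb added, all lower, against 13.7% of all genes that were lower and 13.9% that were higher at that p. Of the 9 log2 changes 7 were below 0, with a median of -0.34, while the median over all genes was 0.03. The mutant and wild type libraries did not overlap for 1 of 9 genes, Akap4. Every mutant library lay below every wild type library for 9.7% of all genes and above for 6.16%. In whole testis, fewer cells of a type and less RNA per cell cannot be told apart.

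**Figure D1:**
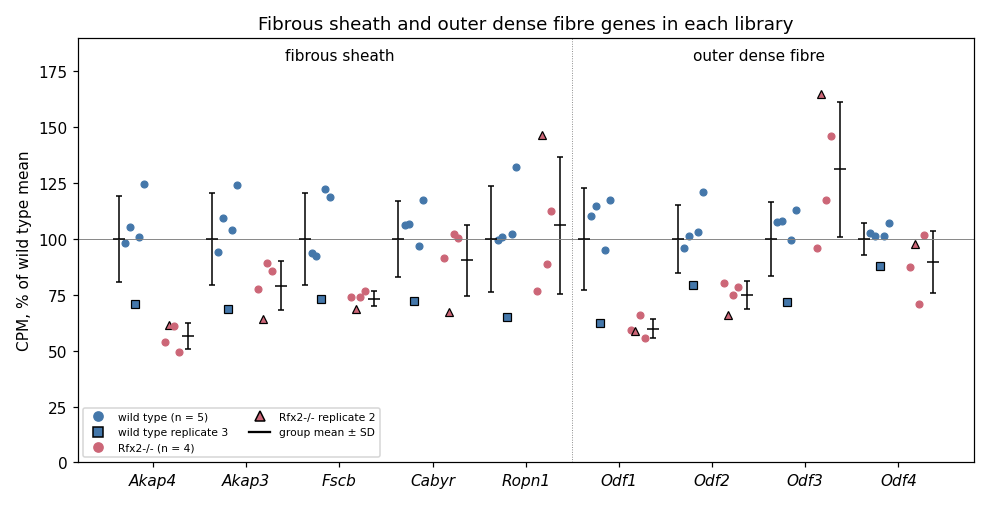
Level of each gene in each library, as a percentage of its wild type mean (vertical axis, CPM), for 5 fibrous sheath and 4 outer dense fibre genes. Points are libraries and bars the mean ± SD of each genotype. Akap4 and Odf1 lie at 56.5% and 59.9% of the wild type mean in Rfx2-/- testes and Odf3 at 131%, and wild type replicate 3 (square) is the lowest wild type library for every gene.

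Of the sheath genes, Akap4 (chrX:7067519-7078609) changed most. Its level was 1608, 1724, 1159, 1656 and 2044 CPM in wild type replicates 1 to 5 and 886, 1010, 998 and 808 CPM in Rfx2-/- replicates 1 to 4. The highest mutant library thus lay below the lowest wild type library, replicate 3. The log2 change was -0.82 ± 0.18 (SE, 95% interval -1.21 to -0.44, edgeR adjusted p = 0.00988), which passed the p limit but not the 2-fold limit. The adjusted p remained under 0.05 when any single library was left out, at 0.042 or less. Among these omissions it met the 0.01 limit only without wild type replicate 3 (0.00316) or Rfx2-/- replicate 2 (0.00261). With library totals in place of TMM it was 0.0139.

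Akap3 (chr6:126853098-126874308), the partner of AKAP4 in the sheath, had 970, 1123, 706, 1067 and 1275 CPM in the wild type libraries. In the mutants it had 798, 659, 918 and 881 CPM. Only Rfx2-/- replicate 2 fell below the wild type range, and the log2 change of -0.34 (95% interval -0.74 to 0.07) did not pass the test (adjusted p = 0.256). Fscb (chr12:64471330-64474690) had 206 to 344 CPM in wild type testes, with a median of 264, and 209, 193, 208 and 216 CPM in the mutants. Its mutant libraries were close to each other and met the lowest wild type library, with a log2 change of -0.45 (95% interval -0.81 to -0.09, adjusted p = 0.105).

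Cabyr and Ropn1 did not pass the test either. Cabyr (chr18:12740322-12755260) had 248 to 403 CPM in wild type and 314, 231, 350 and 345 CPM in Rfx2-/- testes, with a log2 change of -0.15 (95% interval -0.53 to 0.24), and of -0.03 without Rfx2-/- replicate 2. For Ropn1 (chr16:34649921-34678618) the wild type libraries had 271, 275, 178, 278 and 361 CPM and the mutants 209, 399, 242 and 307 CPM. The highest value was that of Rfx2-/- replicate 2, and the log2 change was 0.09 with that library and -0.11 without it. The interval of -0.41 to 0.58 for Ropn1 leaves room for a change of either sign.

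Among the outer dense fibre genes, Odf1 (chr15:38219203-38226735) had 906, 942, 512, 782 and 964 CPM in wild type testes. In Rfx2-/- testes it had 487, 483, 542 and 456 CPM. The groups overlapped only through wild type replicate 3, which lay within the range of the mutants. The log2 change was -0.74 ± 0.19 (SE, 95% interval -1.15 to -0.33, edgeR adjusted p = 0.0262). The adjusted p rose above 0.05, up to 0.0794, without wild type replicate 1, 2, 4 or 5 or Rfx2-/- replicate 4. Odf2 (chr2:29889221-29931746), the most abundant of the 9 transcripts, had 3926, 4150, 3248, 4221 and 4961 CPM in wild type and 3301, 2705, 3067 and 3222 CPM in mutant testes. Of the 4 mutant libraries 3 were below the wild type range, and the log2 change was -0.42 (95% interval -0.77 to -0.07, adjusted p = 0.119). The counts of Odf2 cover the exons of several isoforms.

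Odf3 and Odf4 did not pass the test. Odf3 (chr7:140847805-140851018) had 171, 171, 114, 158 and 179 CPM in wild type and 153, 261, 187 and 232 CPM in Rfx2-/- testes. Here 3 of 4 mutant libraries lay above the wild type range, yet the log2 change of 0.39 (95% interval -0.02 to 0.80) did not pass the test (adjusted p = 0.197), and it was 0.26 without Rfx2-/- replicate 2 and 0.16 without both libraries that stood apart. Odf4 (chr11:68921835-68927081) had 185 to 226 CPM in wild type and 150 to 215 CPM in mutant testes, with a log2 change of -0.16 (95% interval -0.47 to 0.15), and of -0.25 without both libraries.

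With both wild type replicate 3 and Rfx2-/- replicate 2 left out, 5 of the 9 genes were lower at an adjusted p of 0.05, against 12.6% of all genes in the same comparison. The log2 change was then -0.97 for Akap4, -0.86 for Odf1, -0.51 for Fscb, -0.43 for Odf2 and -0.36 for Akap3, and 0 genes were called. Wild type replicate 3 was the lowest wild type library for 9 of 9 genes, with a median log2 deviation of -0.46, and wild type replicate 5 the highest for 8. Leaving out replicate 3 thus raises the wild type mean of each gene, and the 5 of 9 are not independent support for lower levels. The same limit holds for Gapdhs, Akap1, Slc26a8 and Sept4 below, where wild type replicate 3 was also the lowest. Rfx2-/- replicate 2 differed from the other mutants by a median of 0.33 for the 4 genes with under 2 kb of exons and by -0.24 for the 5 longer ones.

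**Figure D2:**
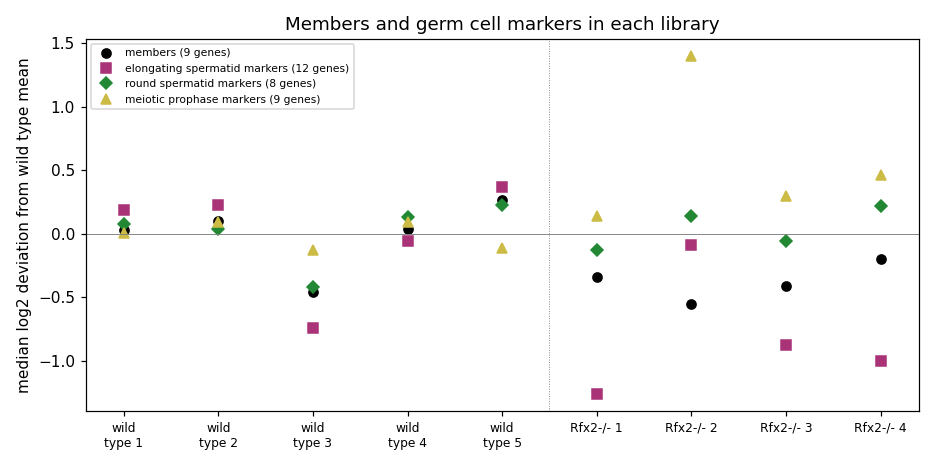
Median log2 deviation from the wild type mean (vertical axis) in each library for the 9 genes and for markers of 3 germ cell stages. In wild type replicate 3 the 9 genes, the round spermatid and the elongating spermatid markers are all below 0, at -0.46, -0.42 and -0.74, while in the mutants the elongating spermatid markers lie between -1.26 and -0.87 except in Rfx2-/- replicate 2, at -0.09, where the 9 genes are at -0.55.

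Germ cell markers also differed between the genotypes. The study reports that spermatids of Rfx2-/- mice arrest before they elongate. The elongating spermatid list is therefore read as a set of transcripts and not as a count of such cells. In wild type replicates 1 to 5 the elongating spermatid markers had median log2 deviations of 0.19, 0.23, -0.74, -0.06 and 0.37. The medians of the 9 genes in these libraries were 0.03, 0.1, -0.46, 0.04 and 0.27. Of 12 elongating spermatid markers 5 were lower at an adjusted p of 0.05 and 2 were called lower, Spata18 and Car2, with a median log2 change of -0.79. Their summed level ranged from 6193 to 13930 CPM in wild type and from 4215 to 8580 CPM in mutant testes, where the highest sum was that of Rfx2-/- replicate 2 and the other 3 were at most 4871 CPM. In that library the markers were near the wild type mean. Their median log2 deviation was -0.09, against -1.26 to -0.87 in the other 3 mutants. The median of the 9 genes was lowest there, at -0.55. Of the 9 genes 4 were at their lowest mutant level in that library and 3 at their highest, with Akap4 among the 3. Values of that library also shifted with exonic length, as given above. In Rfx2-/- replicate 4 the 9 genes stood at -0.20 and the elongating spermatid markers at -1.0. The 8 round spermatid markers had a median log2 change of -0.04 and 1 was called lower, Tex21, with sums of 1182 to 1938 and 1186 to 1678 CPM. The 9 meiotic prophase markers had a median of 0.64, with 2 higher at 0.05 and sums of 1580 to 2014 CPM against 2167 to 4206 CPM, where Rfx2-/- replicate 2 again had the highest sum and the other 3 mutants at most 2528 CPM. None of these markers was at 0 in a library. Their part in the lower levels of Akap4 and Odf1 was not tested. The other lists, for spermatogonia, late spermatocytes and Sertoli, Leydig, peritubular and macrophage cells, had medians from -0.01 to 0.38 and 0 genes called. At an adjusted p of 0.05, only 1 of their genes passed, the Sertoli marker Amh, which was higher at 0.92 (edgeR adjusted p = 0.0145).

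Ratios of 2 transcripts within a library do not depend on the scaling between libraries and show whether partners of a structure changed unequally. The log2 ratio of Akap4 to Akap3 counts was 0.73, 0.62, 0.72, 0.63 and 0.68 in wild type and 0.15, 0.62, 0.12 and -0.12 in Rfx2-/- libraries. It was nearly constant in wild type and lower in 3 of 4 mutants. Rfx2-/- replicate 2 lay below the lowest wild type library by less than the printed decimals, both at 0.62. The separation of the genotypes for this pair, and so its p, rests on that near tie. The difference of -0.48 had a two-sided exact permutation p = 0.0159 (5 against 4 libraries, adjusted p = 0.0556 over 7 pairs), the smallest p that this design can give. The log2 ratio of Odf3 to Odf2 was higher by 0.79 in the mutants, from -4.70 ± 0.13 (SD, n = 5) to -3.91 ± 0.45 (n = 4), again without overlap and with the same exact permutation p and adjusted value. In Rfx2-/- replicate 1 this ratio was -4.44, just above the highest wild type value of -4.52. The highest ratio, -3.37, was that of Rfx2-/- replicate 2, and the difference was 0.61 without that library. A ratio within a library does not remove a trend with exonic length. Odf3 has 1537 and Odf2 4743 bases of exons.

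The other 5 pairs overlapped between genotypes. The exact permutation p was 0.0794 for Odf1 to Odf2, with a log2 difference of -0.30, and 0.111 for Fscb to Cabyr, with -0.28. Ropn1 differed from Akap3 by 0.40 in log2 ratio, with 1 mutant library, replicate 2, at -0.72 and the other 3 between -1.94 and -1.52. The difference was 0.13 without that library and 0.12 without both libraries that stood apart. The ratio of Ropn1 to Ropn1l, its paralog, was -1.82 in both genotypes, with an SD of 0.16 in wild type and 0.07 in mutant libraries. Akap4 and Odf1, the genes lower at an adjusted p of 0.05 in each structure, kept a log2 ratio of 1.01 ± 0.15 (SD, n = 5) in wild type and 0.91 ± 0.11 (n = 4) in mutants. At an adjusted p of 0.05, 0 of 7 pairs passed, and 2 had an unadjusted p under 0.05. These 2 had the smallest exact permutation p possible, 0.0159, which over 7 pairs gave 0.0556. They could not have passed in this design unless more pairs had separated.

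**Figure D3:**
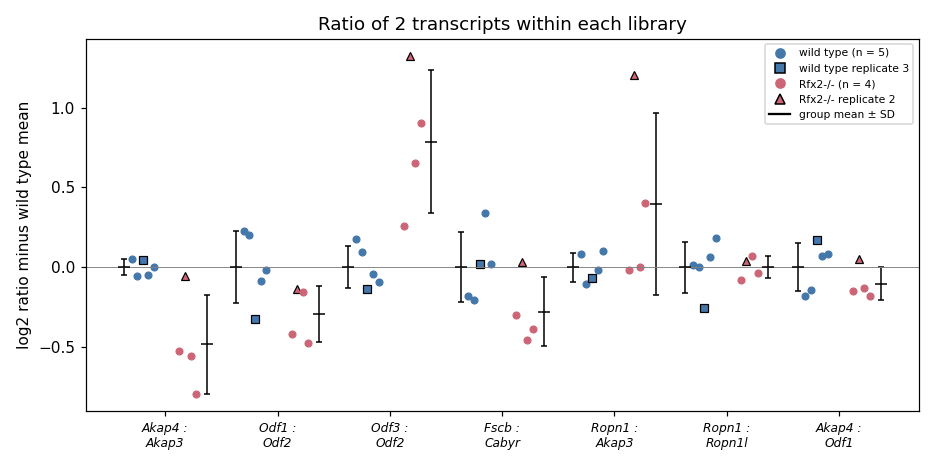
Log2 ratio of the counts of 2 transcripts within each library, minus the wild type mean of the pair (vertical axis), for 7 pairs. Points are libraries and bars the mean ± SD of each genotype. Akap4 to Akap3 is lower and Odf3 to Odf2 higher in Rfx2-/- libraries without overlap. In the first pair Rfx2-/- replicate 2 (triangle) is nearly tied with the lowest wild type library, and in the second it is farthest from the wild type.

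Other genes of these structures, of adjoining ones, and of protein kinase A and its anchors were examined in 5 lists with 49 genes. Of these 48 were tested, 6 were called lower and 0 higher. The list of other outer dense fibre genes held the largest changes, with 3 of 9 tested genes called lower and a median log2 change of -0.35. Ccdc42 (chr11:68587021-68597966), whose protein lies at the manchette and the head to tail coupling apparatus and binds ODF1 and ODF2, had 113, 121, 106, 106 and 139 CPM in wild type and 0.864, 0.535, 0.954 and 1.18 CPM in Rfx2-/- testes. It fell to 0.754% of the wild type mean, a log2 change of -7.04 (95% interval -7.53 to -6.55, edgeR adjusted p = 3.41e-09).

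Both tested relatives of Odf3 in the list of other outer dense fibre genes, Odf3b and Odf3l1, were called lower in the mutants. They share its shippo repeats. Odf3b (chr15:89377449-89379282) had 14.8, 16.4, 8.64, 13.9 and 15.2 CPM in wild type and 1.53, 0.468, 1.23 and 0.589 CPM in mutant testes. This was a log2 change of -3.78 (95% interval -4.51 to -3.05, edgeR adjusted p = 1.04e-05). Odf3l1 (chr9:56848659-56864679) had 101, 90.6, 62.0, 91.0 and 95.2 CPM in wild type and 28.8, 18.1, 23.6 and 25.3 CPM in mutant testes, with a log2 change of -1.87 (95% interval -2.27 to -1.47, edgeR adjusted p = 2.60e-05). In neither gene did the genotypes overlap, and both were called under each of 16 alternative settings, as was Ccdc42. The intervals of these changes lie wholly below that of Odf3, but the difference between the genes was not tested. Odf3l2, the remaining relative in that list, had at most 0.078 CPM in any library and was not tested.

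Among the other fibrous sheath genes 2 of 9 were called lower and the median log2 change was -0.12. Aldoart1, a testis-specific aldolase, fell from 94.8 ± 20.1 CPM (SD, n = 5) to 42.1 CPM (n = 4), a log2 change of -1.17 (95% interval -1.62 to -0.72, edgeR adjusted p = 0.00279). Of its exonic 50-base words 5.79% also occur in Aldoa or other genes, and reads with several positions were discarded by the authors. Its call was lost without Rfx2-/- replicate 4, where the adjusted p was 0.0111. Rhpn1, rhophilin, a binding partner of ropporin, fell from 40.7 ± 4.3 CPM (SD, n = 5) to 19.6 CPM (n = 4), a log2 change of -1.06 (95% interval -1.49 to -0.63, edgeR adjusted p = 0.00412). Its call was lost without 7 of the 9 single libraries, where the adjusted p was up to 0.0259. The remaining genes did not pass the test. Gapdhs, the sperm glyceraldehyde 3-phosphate dehydrogenase of the sheath, had -0.58 (adjusted p = 0.0662), and Spa17, a protein with a domain like that of the regulatory subunit of protein kinase A, had 0.72 (adjusted p = 0.060), though its exons overlap those of Siae. Spa17 stood at 0.47 without Rfx2-/- replicate 2 and 0.38 without both libraries, whereas Gapdhs, at -0.68 without both, then had an adjusted p of 0.000528. Both were chosen after their values were seen.

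Of 6 protein kinase A subunits 1 was called lower, Prkar2a. It encodes the type II regulatory subunit to which A-kinase anchors bind. Its level was 182, 186, 102, 177 and 217 CPM in wild type and 75.5, 108, 78.1 and 63.1 CPM in Rfx2-/- testes. Wild type replicate 3 overlapped with Rfx2-/- replicate 2, and the log2 change was -1.09 (95% interval -1.58 to -0.60, edgeR adjusted p = 0.00762). This call was lost without 7 of the 9 single libraries, where the adjusted p was up to 0.0363, and was kept without wild type replicate 3 or Rfx2-/- replicate 2. It was also lost when the trend of counts with exonic length was removed, at -1.04 (adjusted p = 0.0165). The median of the list was -0.02.

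Of 13 other A-kinase anchoring proteins 0 were called in either direction and 1 was lower at an adjusted p of 0.05, Akap14, with a log2 change of -0.65 (edgeR adjusted p = 0.018). The largest values in this list were 0.85 for Akap6 (adjusted p = 0.0757), a scaffold of the nuclear envelope, and -0.84 for Akap1 (adjusted p = 0.0636), the anchor of the outer mitochondrial membrane. Akap1 was -0.61 (adjusted p = 0.0227) without Rfx2-/- replicate 2 and -0.72 (adjusted p = 0.000346) without both libraries. Without Rfx2-/- replicate 2, Akap6 was called higher, at 1.09 (adjusted p = 0.0014). Of 11 genes of the mitochondrial sheath and the annulus, the structures on the midpiece side of the fibrous sheath, 0 were called. Their median log2 change was -0.27, with -0.64 for Slc26a8, the anion transporter of the annulus, and -0.55 for Sept4, a septin of the annulus, neither of which passed the test. Without Rfx2-/- replicate 2 these were -0.37 (adjusted p = 0.0448) and -0.35 (adjusted p = 0.16), and without both libraries -0.39 (adjusted p = 0.0257) and -0.46 (adjusted p = 0.00905).

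**Figure D4:**
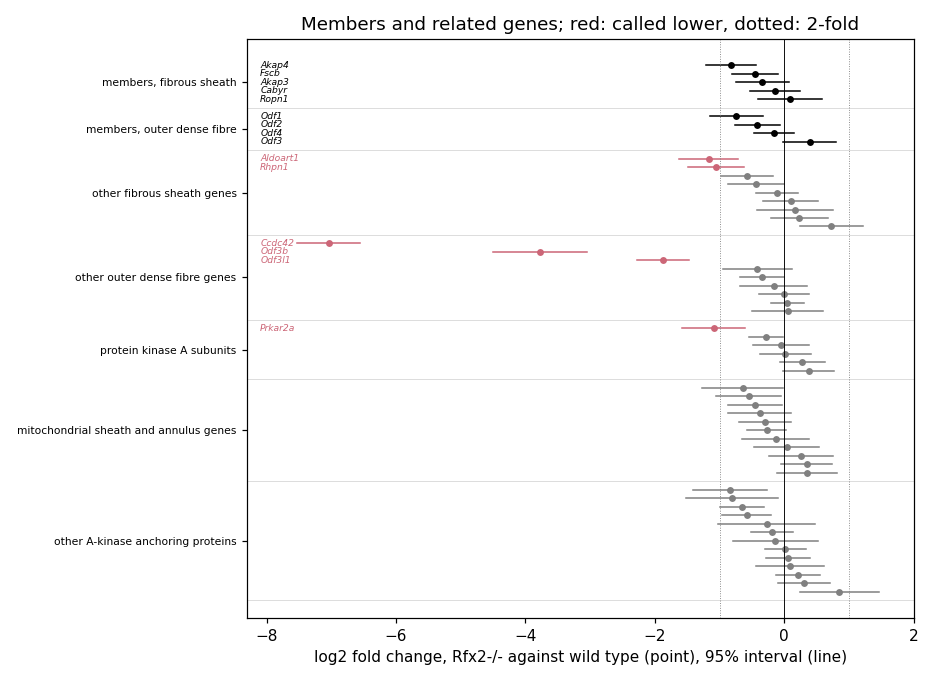
Log2 fold change of Rfx2-/- against wild type (horizontal axis, points) with its 95% interval (lines) for the 9 genes and the 48 tested genes of the related lists. Called genes are red and dotted lines mark a 2-fold change. None of the 9 genes in black passes the 2-fold line, and the 6 called genes all lie to the left of it, from -1.06 for Rhpn1 to -7.04 for Ccdc42.

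**Figure D5:**
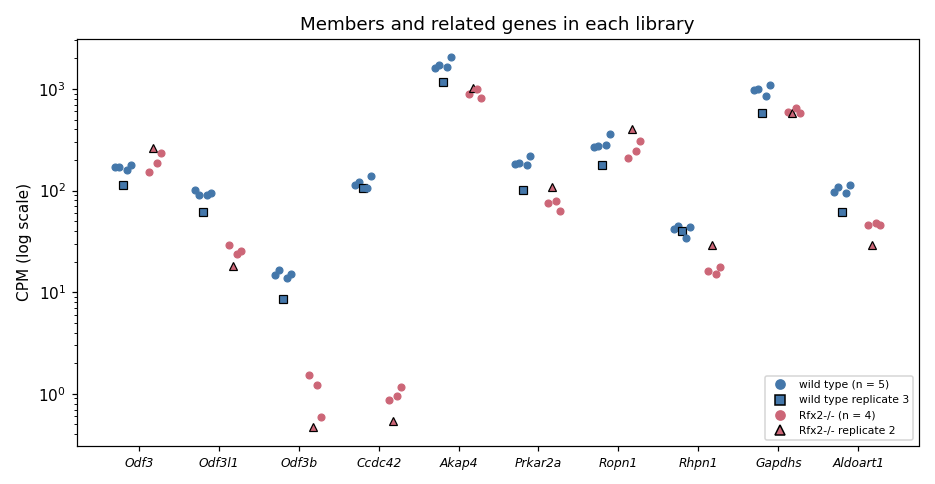
CPM on a logarithmic axis in each library for Odf3, Akap4 and Ropn1 and for related genes. Ccdc42 and Odf3b are near 1 CPM or below in the Rfx2-/- libraries, whereas Odf3 lies at 153 to 261 CPM.

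Across the 9 libraries the 9 genes did not vary as 1 group. Pearson's r between pairs of them ranged from -0.31 for Odf2 and Odf3 to 0.96 for Akap4 and Odf1. These values describe 9 libraries that share genotype and depth and carry no test. The genes with the profile most like the mean of the 9 were 1700030J22Rik (r = 0.982), Stpg1 (0.974), Jmjd6 (0.970), Sufu (0.969) and Flvcr2 (0.968), none of which was called.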

How the data were processed

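RNA-seq of decapsulated testes was analysed for 5 wild type and 4 Rfx2-/- mice. Raw counts per gene were deposited by the authors without normalisation. According to their methods, single reads of TruSeq libraries were mapped to GRCm38, reads with several positions were discarded, and the merged exons of protein coding isoforms were counted, leaving out reads over exons of different genes. The submitters' processing notes name CASAVA 1.8.2, STAR 2.4 and featureCounts 1.4.6. The use of strand is not given in the sources used here, so that reads of overlapping genes on opposite strands may be mixed. Each library is a separate mouse, and within a genotype the counts of any pair differed by at least 4.52 in chi-square per gene, where sampling alone gives about 1.

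Genes were named from GENCODE M21 (96.6% of IDs). The quasi-likelihood test of edgeR 4.0.16 (TMM, filterByExpr, Benjamini-Hochberg over 15613 genes) was used with genotype as the only term, and a gene was called at an adjusted p of 0.01 and over 2-fold. Levels are TMM-scaled CPM. Ratios used counts plus 0.5 and a two-sided exact permutation test, adjusted over 7 pairs. Total counts were 13574764 to 28800855, so that 3 counts, the limit that a count of 0 allows, correspond to 0.0996 to 0.234 CPM, for counting error only. The named genes were the 9 members, the called genes of 5 related lists or else the 2 with the largest change, the 5 most alike over the libraries, and Rfx2. Others are stated as chosen after their values were seen, as were Akap14, the marker genes and the genes used only in ratios. The members and lists were chosen with earlier results of these data known. DESeq2 1.42.0, other scaling, filters, a test against the fold limit, a length correction and the omission of libraries were tried as alternatives. The procedure was tested on simulated data. No fold changes or p-values of the authors were used.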

Additional observations from a re-analysis of the deposited data

Results flagged for a closer look

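In 2 of 52 groups 1 library stood apart from the rest by its gap relative to the range of its group, where chance gives about 1 in 20. Aldoart1 had 28.8 CPM in Rfx2-/- replicate 2 and 46.0 to 47.8 CPM in the other 3 mutant libraries. Odf3l1 had 62.0 CPM in wild type replicate 3 and 90.6 to 101 CPM in the other 4 wild type libraries.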

How the results depend on the processing

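The number of the 9 genes called lower and called higher was 0 under all 16 alternatives. The number lower at an adjusted p of 0.05 was 1 to 2 when single libraries were left out, 0 in the test against the 2-fold limit and 5 without both wild type replicate 3 and Rfx2-/- replicate 2. With library totals in place of TMM the median of all genes moved by 0.13, the log2 change of Cabyr was 0, 483 genes were called lower and 191 higher, and Rhpn1 and Prkar2a were not called (-0.92 and -0.94). With the length trend removed Prkar2a was not called (-1.04). Of all genes, 575 were called lower and 129 higher in the main comparison. DESeq2 called 198 genes higher, and the test against the 2-fold limit called 272 lower and 29 higher and did not call Aldoart1, Rhpn1, Prkar2a or Rfx2. Ropn1 ranged from -0.11, without Rfx2-/- replicate 2, to 0.25 when single libraries were left out, and was -0.23 without both libraries. The log2 ratio of Ropn1 to Ropn1l ranged from -0.06 to 0.05 when single libraries were left out, with -0.02 and -0.01 among these values, and was -0.08 without both. The level of Odf2 was 1036 and that of Cabyr 161 CPM per kb over the longest transcript. The alternatives for Rfx2 and 13 genes of the related lists were added after the data were seen. The cause of these differences was not tested. No paired analysis was possible because the labels give animal numbers and no replicate numbers shared by the genotypes.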
